A study of Oryza sativa with 6 samples.

Results

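The genes described here are 5 genes of the circadian clock of rice (GI, PRR1, PRR37, PRR73 and PRR95), the clock output gene HD1 and the 3 phytochrome genes (PHYA, PHYB and PHYC). They were found by symbol or synonym in a gene table and joined by gene identifier to the array annotation, which gave 12 probe sets for the 9 genes, out of 17905 annotated genes. The array holds 57381 probe sets, of which 22436 have 1 annotated gene. A probe set is a group of short probes that together report 1 transcript. Transcripts were measured in young leaves of 11-day-old plants of the indica rice Minghui63, with 3 arrays from wild-type control plants and 3 from plants carrying a hairpin construct for RNA interference (RNAi) against OsSRT1, a sirtuin deacetylase. The hairpin holds 412 bp of the 3' untranslated region of OsSRT1, the leaves were taken before the RNAi plants formed lesions, and the RNAi titles name transgenic lines LM1, LM2 and LM3, used here as replicate numbers 1 to 3. Whether these lines are independent of one another is not stated. A p-value here speaks of the scatter among these samples, which may be technical or, in the RNAi group, include differences between lines. Seedlings of control replicate 2 were grown with 16 h of light and 8 h of dark at 25 °C. No growth conditions are given for the other samples, and no hour of harvest is given for any.

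The plant clock is a loop of transcription factors that repress one another in turn through the day. LHY is expressed at dawn, the pseudo-response regulators (PRR proteins, which are repressors of transcription) follow in a wave from morning to evening, and GI and the evening complex, of which PCL1 is a part, come late in the day. The levels of these transcripts in 1 harvest therefore depend on its hour. Phytochromes are the red and far-red light receptors that report day and season to this loop, and in rice HD1 turns the combined signal into earlier heading in short days and later heading in long days.

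In these leaves, 0 of the 11 tested probe sets of the clock and phytochrome genes passed an adjusted p of 0.05. The groups overlapped at every probe set of GI, PRR1, PRR73, PRR95, HD1, PHYA and PHYB. The member furthest from the controls was PRR37, with lower signal in every RNAi array at both of its probe sets, and PHYC had higher signal in every RNAi array. The 3 RNAi arrays were not alike in their clock genes. RNAi replicate 1 had the lowest PRR37 and, outside the 9 genes, the highest LHY of all arrays. That array also differed most from its group over all tested probe sets, as given below. The controls differed too, with PCL1, also outside the 9 genes, at 141, 398 and 614 in replicates 1 to 3.

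The signals come from the deposited intensities, with each array brought to a common trimmed mean of 500, and a log2 fold change is the RNAi minus control difference of log2 of this signal plus 16. Groups were compared with limma over 28597 probe sets, those in the upper 50% by mean signal, and p-values were adjusted over all of them by the Benjamini-Hochberg method. Of these, 601 were called, which is 2.1% (1.09% higher and 1.01% lower in the RNAi arrays), a share at which 0 of 11 says little about these genes in particular. Unadjusted p-values under 0.05 were found at 3 of the 11 member probe sets (27.3%), against 15.6% of all tested probe sets. SAM, a permutation method the submitters name, called 0 of the 11 and 540 of all tested probe sets (1.89%). The groups did not overlap at 3 of the 11 (27.3%), against 22.4% of all tested probe sets. Of the 3, PHYC was higher, as were 12.5% of all tested probe sets, and the PRR37 probe sets were lower, as were 9.88%. PRR37 is thus counted at both of its probe sets. With 1 probe set per gene, the groups did not overlap at 2 of 8 tested members (25%), against 25.2% of all tested genes. Unadjusted p-values under 0.05 from limma were then found at 2 of 8 (25%), against 17.8%. Over the 11, 6 had a lower and 5 a higher mean log2 signal in the RNAi arrays (for PHYB, at -0.01, the mean of the linear signal was slightly higher), with a median log2 fold change of -0.01 against 0.03 for all tested probe sets. Fewer cells of a type and less RNA per cell cannot be told apart in whole leaves.

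**Figure D1:**
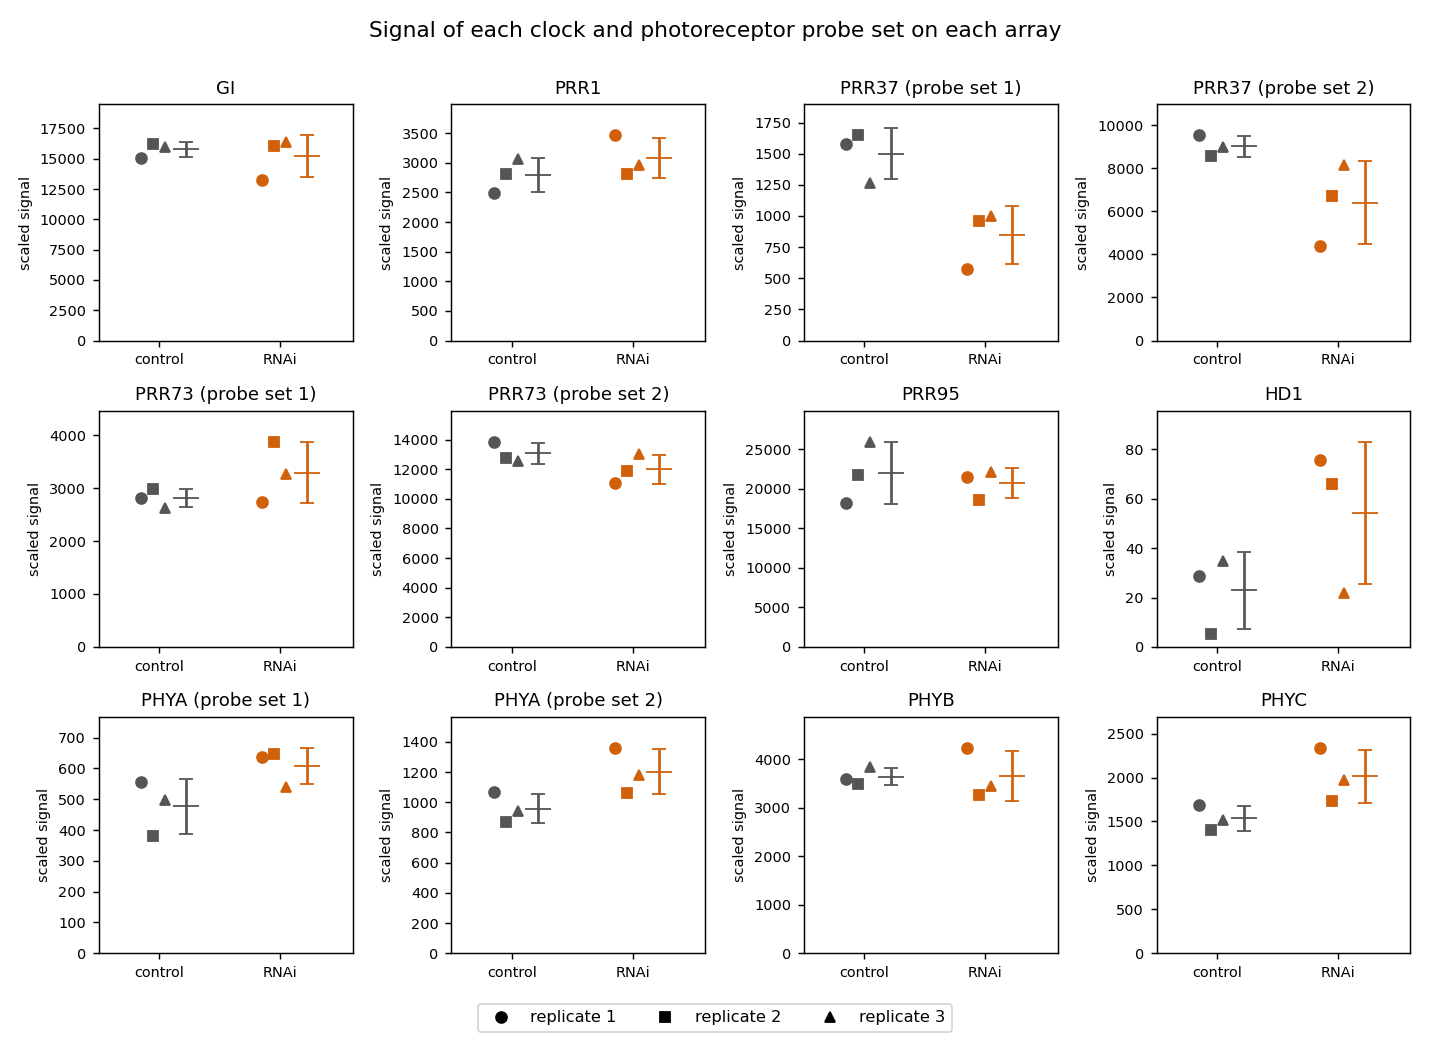
Scaled signal (linear axis from 0) of the 12 probe sets of the 9 genes on each array. Grey symbols are control arrays, orange symbols RNAi arrays, the symbol shape gives the replicate number, and each bar is the group mean with its SD (n = 3). The groups are apart at both probe sets of PRR37 and at PHYC and overlap at the other 9.

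Facts that hold for all arrays bear on every value. All control arrays share 1 recorded hybridization time and all RNAi arrays a later one, so hybridization run and group cannot be told apart. The deposited scale of control replicate 3 was far above that of the others (trimmed mean 500.1 against 99.86 to 117.8). No probe set was annotated as OsSRT1, so the knockdown was not analysed here. Of the leaf markers RBCS, RBCS1, RCA and CAB2R, 3 of 4 were tested and none was called, and their summed signal was 96842 to 116736 in the controls and 91112 to 106024 in the RNAi arrays. Of the 2 root markers the phosphate transporter gene PHT1;11 was called at its brightest probe set (adjusted p = 0.000727 with limma). Its other tested probe set was not called (adjusted p = 0.135 with limma). The other root marker, PIP2;5, overlapped between the groups (38.3 to 93.4 and 65.5 to 98, adjusted p = 0.714 with limma). The summed signal of both genes at their brightest probe sets was 67.1 to 111 in the controls and 311 to 418 in the RNAi arrays. The summed signal of the 6 dividing-cell markers, 4 of them tested, was 798 to 825 and 538 to 822, with none called. That of the 4 seed markers was 1268 to 1448 and 1259 to 1466. Of these only GLUA-2 was tested, with 1243 to 1437 and 1244 to 1429 at its brightest probe set, and it was not called. No pollen marker was found. Several markers were too dim to be tested, such as GLUA-1 with at most 2.48 on any array. The part of the markers in the results was not tested. In RNAi replicate 1, 6.85% of tested probe sets lay more than 2-fold from the mean of the other RNAi arrays, against 3.68% to 4.41% for the other 5 arrays compared in the same way.

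PRR37 (NCBI gene 4344399), also named DTH7 and HD2, is a repressor that peaks near midday and delays heading under long days. Its first probe set had a signal of 1581, 1648 and 1266 in control replicates 1 to 3 and of 576, 962 and 999 in RNAi replicates 1 to 3. The second had 9540, 8566 and 8998 in the controls and 4376, 6707 and 8158 in the RNAi arrays. At both, every RNAi array lay below every control array, and RNAi replicate 1 lay lowest. The means were 1498 ± 204 (SD, n = 3) and 846 ± 235 at the first probe set, a log2 fold change of -0.85 ± 0.22 (SE) with a 95% interval from -1.34 to -0.35. Limma's adjusted p was 0.101 and the unadjusted p 0.00405. At the second the log2 fold change was -0.54 ± 0.2, with a 95% interval from -0.99 to -0.09 and an adjusted p of 0.235 with limma. A change at least as far down as these was found at 2.54% and 6.82% of all tested probe sets. The size rested in part on RNAi replicate 1. Without it the log2 fold changes were -0.59 (adjusted p = 0.0762 with limma) and -0.29 (0.221). As the groups did not overlap, leaving out an array could change the size but not the direction.

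PRR73 (NCBI gene 4332464) is the closest relative of PRR37 among the members and is usually expressed in the morning. Its first probe set had a signal of 2818, 2977 and 2631 in the controls and 2744, 3878 and 3258 in the RNAi arrays. The second had 13864, 12741 and 12586 in the controls and 11044, 11897 and 13014 in the RNAi arrays. The groups overlapped at each probe set, and the means differed in opposite directions. The log2 fold change was 0.22 ± 0.14 at the first and -0.13 ± 0.1 at the second, with adjusted p-values of 0.508 and 0.569 from limma. The brighter probe set gave a 95% interval from 0.789-fold to 1.06-fold for PRR73. That of the brighter PRR37 probe set, from 0.504-fold to 0.941-fold, overlaps it, and that of the dimmer one ran from 0.394-fold to 0.787-fold. The difference between the genes was not tested.

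PRR95 (NCBI gene 4347674) is usually an afternoon gene of the same family. Its signal was 18180, 21756 and 25980 in the controls and 21561, 18600 and 22071 in the RNAi arrays. All RNAi values lay within the control range. The log2 fold change was -0.07 ± 0.13, with a 95% interval from 0.772-fold to 1.17-fold (adjusted p = 0.837 with limma).

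PRR1 (NCBI gene 4330000) is the rice counterpart of the Arabidopsis evening gene TOC1. The signal of PRR1 was 2493, 2811 and 3070 in the controls and 3467, 2813 and 2969 in the RNAi arrays. RNAi replicate 1 lay above all controls and the other RNAi arrays lay among them. The means were 2791 ± 289 and 3083 ± 341 (SD, n = 3). The log2 fold change was 0.14 ± 0.13, with a 95% interval from 0.901-fold to 1.35-fold (adjusted p = 0.64 with limma).

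GI (NCBI gene 4325329) encodes a large nuclear protein that peaks towards dusk and acts upstream of HD1 in rice. Its signal was 15051, 16253 and 16009 in the controls and 13257, 16084 and 16342 in the RNAi arrays. RNAi replicate 1 was the lowest of all arrays, and the other RNAi arrays lay within or just above the control range. The means were 15771 ± 636 and 15227 ± 1711 (SD, n = 3). The log2 fold change was -0.06 ± 0.1, with a 95% interval from 0.819-fold to 1.13-fold (adjusted p = 0.832 with limma).

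**Figure D2:**
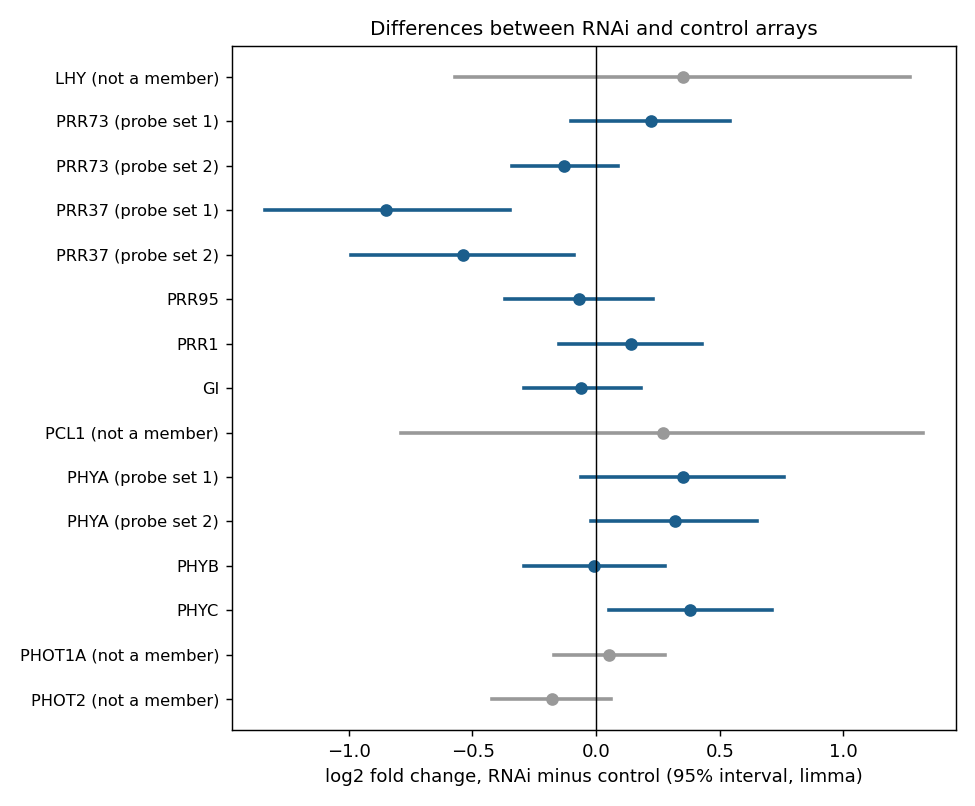
Log2 fold change (RNAi minus control, horizontal axis) with its 95% interval from limma for the tested probe sets of the clock and phytochrome genes (blue) and for LHY, PCL1 and the phototropin genes (grey), 3 arrays a group. The intervals of PRR37 and PHYC leave out 0 without adjustment, and those of LHY and PCL1 are the widest.

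HD1 (NCBI gene 4340746), the rice counterpart of Arabidopsis CONSTANS, usually rises after dusk. Its probe set had a signal of 28.9, 5.28 and 34.7 in the controls and 75.7, 65.8 and 21.7 in the RNAi arrays. The groups overlapped. The mean log2 signal of HD1 was below the filter, whose lowest tested mean equals a signal of 36.1, so HD1 was not tested with the others. In the alternative fit with no filter its log2 fold change was 0.85 ± 0.52 (adjusted p = 0.629 with limma). Its main target HD3A, a florigen gene that moves the flowering signal from leaf to shoot tip, had 21.3, 6.88 and 6.64 in the controls and 41, 29 and 48.7 in the RNAi arrays. These groups did not overlap, but the mean of HD3A was also under the filter and was not tested. HD3A is outside the rule for naming genes and was added after its values were seen.

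Of the phytochromes, PHYC (NCBI gene 4334135) had a signal of 1690, 1404 and 1519 in the controls and 2337, 1737 and 1976 in the RNAi arrays. Its protein pairs with that of PHYB in rice. Every RNAi array lay above every control array, by a narrow margin for RNAi replicate 2. The means were 1538 ± 144 and 2017 ± 302 (SD, n = 3), a log2 fold change of 0.38 ± 0.15 with a 95% interval from 0.05 to 0.71. The adjusted p was 0.25 with limma, and 15.7% of all tested probe sets had a change at least as far up. Without RNAi replicate 1 the log2 fold change was 0.27.

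PHYA (NCBI gene 4333930), the receptor for far-red light, has 2 probe sets. The first had a signal of 555, 380 and 496 in the controls and 636, 647 and 541 in the RNAi arrays. The second had 1065, 869 and 942 in the controls and 1360, 1064 and 1182 in the RNAi arrays. At each, 1 RNAi array lay below the highest control, and at the second that overlap was 1065 against 1064. The log2 fold changes were 0.35 ± 0.18 and 0.32 ± 0.15, with adjusted p-values of 0.397 and 0.346 from limma. The suffix of the second probe set's name marks it as able to read several transcripts, so its signal may not be that of PHYA alone.

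PHYB (NCBI gene 4332623) is the main receptor for red light. Its signal was 3599, 3486 and 3836 in the controls and 4233, 3266 and 3440 in the RNAi arrays. RNAi replicate 1 was above all controls and the other RNAi arrays were below all of them. The means were 3640 ± 179 and 3646 ± 516 (SD, n = 3). The log2 fold change was -0.01 ± 0.12, with a 95% interval from 0.819-fold to 1.21-fold (adjusted p = 0.989 with limma). At the 3 phytochrome genes RNAi replicate 1 was thus the highest of all arrays, except at the first PHYA probe set, where RNAi replicate 2 was.

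PHYC and the second PHYA probe set, which may read several transcripts, followed each other closely over the arrays. In PHYC and in the second PHYA probe set, control replicate 2 was the lowest, control replicate 3 came next and RNAi replicate 1 was the highest. As a measure of likeness, Pearson's correlation of log2 signal over the 6 arrays was 0.996 between them and 0.753 between PHYC and the first PHYA probe set. The arrays share their group difference and hybridization runs, so this is a description of 6 points. Correlations this high were common: for the brightest probe set of each member, between 29 and 260 probe sets had a correlation over 0.95. The most alike named gene was phyC itself for PHYA, OsPRDA1 for PRR37 (0.9958), KPHMT1 for PHYC (0.9983), KU70 for GI (0.9995), MCM7 for PRR73 (0.9949), PDHE1-B for PRR1 (0.9823), OsSUV3 for PHYB (0.9786) and Q-enzyme for PRR95 (0.9761). The correlation between the probe sets of a gene was 0.925 for PRR37, 0.784 for PHYA and -0.105 for PRR73.

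**Figure D3:**
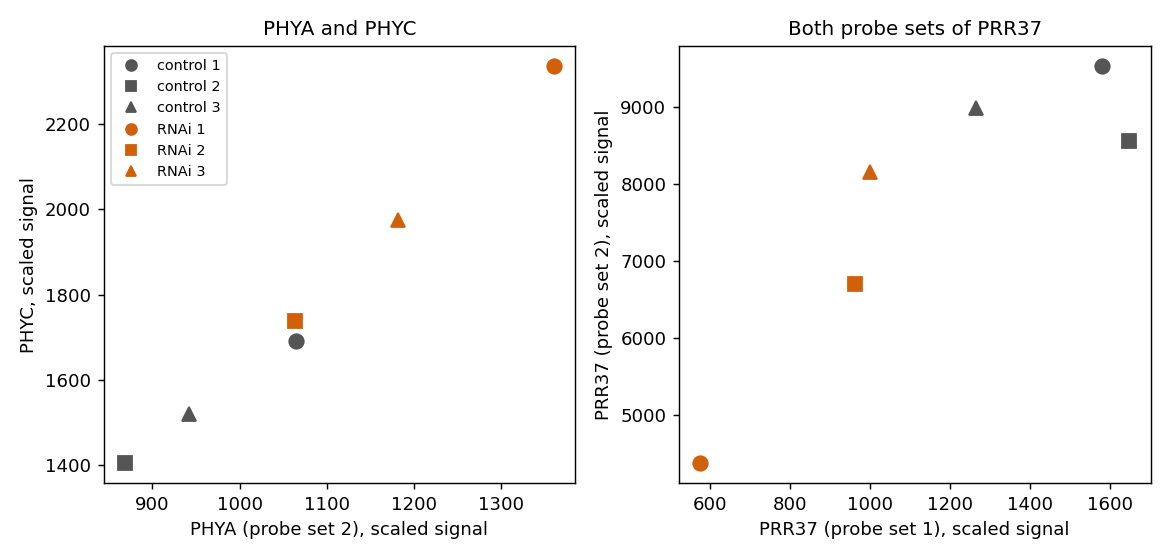
Scaled signal (linear axes that do not start at 0) of the second PHYA probe set against PHYC, left, and of the first against the second PRR37 probe set, right, with 1 symbol an array (grey control, orange RNAi, shape by replicate). RNAi replicate 1 lies at the top right for the phytochromes and at the bottom left for PRR37.

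The hour of harvest sets the levels of clock genes, so the members were also read in the order of their usual daily peak, together with LHY and PCL1, the other clock genes with a probe set in the annotation used. LHY, the dawn repressor, had a signal of 5805, 5384 and 4586 in the controls and 15010, 4327 and 4576 in the RNAi arrays. RNAi replicate 1 was far above all other arrays, and the other RNAi arrays were just below the lowest control. The log2 fold change was 0.35 ± 0.41 (adjusted p = 0.722 with limma) and turned to -0.23 without RNAi replicate 1 (0.352). PCL1, a DNA-binding protein of the evening complex, had 141, 398 and 614 in the controls and 599, 317 and 334 in the RNAi arrays. Its log2 fold change was 0.27 ± 0.47 (adjusted p = 0.823 with limma), and it turned to -0.3 without control replicate 1 and to -0.02 without RNAi replicate 1. A second probe set of LHY had a signal of at most 9.37 on any array and was not tested.

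By usual time of peak, the log2 fold change was 0.35 for LHY at dawn, -0.13 for PRR73 and -0.54 for PRR37 between morning and midday, -0.07 for PRR95 in the afternoon, and 0.14 for PRR1, -0.06 for GI and 0.27 for PCL1 in the evening, each at the gene's brightest probe set. None of these passed the test. The intervals of PRR95, PRR1, GI and PRR73 at these probe sets all lay between 0.772-fold and 1.35-fold, while those of LHY and PCL1 reached from 0.673-fold to 2.41-fold and from 0.579-fold to 2.5-fold. These intervals were thus narrow for the former probe sets and wide for LHY and PCL1. The dimmer PRR73 probe set had an interval from 0.93-fold to 1.45-fold. All intervals reflect the scatter among these samples only, and hybridization run and group cannot be told apart. LHY and PCL1 changed sign when single arrays were left out, RNAi replicate 1 for both and control replicate 1 for PCL1. Without control replicate 3 the PCL1 value was 0.7.

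With 3 arrays a group, each array is at an end of its group's range in some of these genes. The percentiles below show how far. RNAi replicate 1 had 3.36 times the LHY signal of the mean of the other RNAi arrays, at percentile 99.9 of all tested probe sets ranked by this difference. It had 1.8 times their PCL1 (percentile 97.2), 1.2 times their PRR1 (78) and 0.818 times their GI (29.4). For PRR37 it had 0.594 and 0.593 times their signal (9.29 and 9.25), and for PRR73 0.773 and 0.888 times (24.1 and 38.4). For PRR95 it had 1.06 times their signal (63.4). RNAi replicate 2 was the lowest RNAi array for LHY (percentile 1.69), PCL1 (7.21), PRR1 (22.5) and PRR95 (19). Control replicate 1 had the lowest PCL1 of all arrays (percentile 0.346 in its difference from the other controls). It had the lowest PRR1 (19.9), PRR95 (11.9) and GI (32.4) and the highest LHY (72.4) of the controls. Control replicate 3 had the highest PCL1 (99.6), PRR1 (78.2) and PRR95 (88.9) and the lowest LHY (20.7) of the controls. These are single arrays with no test, and whether the hour of harvest moved with them was not tested, since no hour is given.

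**Figure D4:**
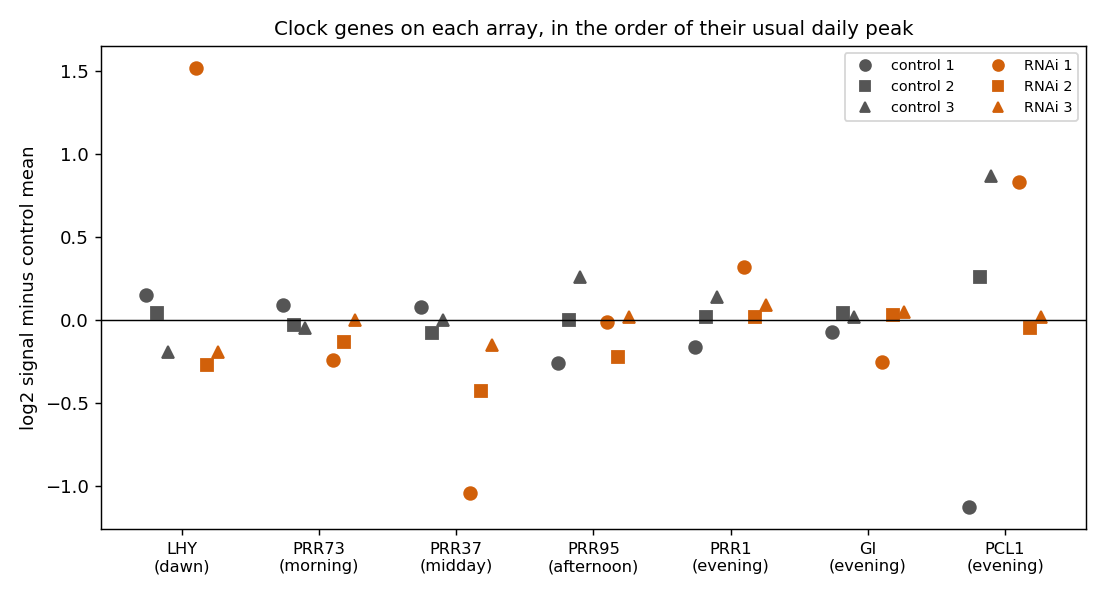
Log2 signal of each array minus the control mean (vertical axis) for 7 clock genes at their brightest probe set, ordered by their usual time of peak, with grey control and orange RNAi symbols and the shape giving the replicate. RNAi replicate 1 stands apart at LHY (15010 against at most 5805 elsewhere) and at PRR37, and control replicate 1 at PCL1.

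The spread within groups was not large for most members. The median within-group SD of log2 signal was 0.177 over the 11 tested member probe sets and 0.258 over all tested probe sets, and the members ran from percentile 8.68 (PRR73, second probe set) to 65.8 (PRR37, first probe set). PCL1 and LHY, outside the 9 genes, were at percentiles 96.8 and 94.9. These percentiles are not adjusted for the brightness of the probe sets.

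Beyond the members, genes of light sensing and of the day-length pathway to flowering had no calls. Of the blue-light receptors, 2 were tested and 0 passed. The phototropin gene PHOT1A had signals of 5421, 4825 and 5131 in the controls and of 4997, 5434 and 5492 under RNAi. Its log2 fold change was 0.05 ± 0.1 (adjusted p = 0.847 with limma), and that of PHOT2 -0.18 ± 0.11 (0.465). No gene of the light signalling list (COP1, HY5 and the PIF-like factors among them) was found by name. Of 13 flowering genes with a probe set, 11 were tested and 0 passed, with a median log2 fold change of 0.09 and a range from -0.37 to 0.22. The median of all genes, each by its brightest probe set, was 0.02, and 2.33% of them were called.

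With each gene of that flowering list read at its brightest probe set, the smallest adjusted p was that of EHD4, a zinc-finger gene that promotes heading. Its signal was 5261, 6058 and 6459 in the controls and 5067, 4600 and 4086 in the RNAi arrays, so that every RNAi array lay below every control (log2 fold change -0.37 ± 0.12, adjusted p = 0.192 with limma). SE5, a haem oxygenase needed to make the chromophore of all phytochromes, had 0.14 ± 0.1 (adjusted p = 0.539 with limma). HD18 had 0.22 ± 0.2 (0.642) and the MADS-box gene MADS56 0.13 ± 0.12 (0.649). Leaving out 1 array moved HD18 to between 0.07 (without control replicate 3) and 0.41 (without control replicate 1), and MADS56 to 0 without RNAi replicate 1. The heading gene EHD3 differed between its probe sets. The dimmest, added after its values were seen, had 107, 90.3 and 142 in the controls and 41.8, 52.7 and 56 under RNAi. Its log2 fold change was -0.95 ± 0.27 (adjusted p = 0.134 with limma). The brightest probe set had 0.06 ± 0.14 (0.868) and the remaining one -0.02 ± 0.21 (0.977), so only the dimmest stood apart.

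Among genes of light harvesting and chlorophyll synthesis, many of which follow a daily rhythm, 7 of 8 genes with a probe set were tested, 1 rose and 0 fell. The gene that rose was PORA, a protochlorophyllide reductase known for its abundance in dark-grown seedlings. Its signal was 1486, 674 and 1329 in the controls and 3496, 3025 and 4420 in the RNAi arrays, with no overlap (adjusted p = 0.0175 with limma, and 0.0671 without RNAi replicate 3). The other 6 had lower means. CAB2R, a chlorophyll a/b-binding protein, had 36857, 35451 and 30703 in the controls and 18862, 29290 and 33008 under RNAi at its brightest probe set, lowest in RNAi replicate 1. The log2 fold change there was -0.38 ± 0.19 (adjusted p = 0.374 with limma), and -0.14 without that array. At the other CAB2R probe set every RNAi array (18535, 23860 and 24568) lay below every control (31497, 28900 and 25093). That probe set had -0.36 ± 0.13 (adjusted p = 0.225 with limma), and -0.23 without RNAi replicate 1. LHCP, of the same family, had -0.25 ± 0.12 (adjusted p = 0.372) and -0.11 without RNAi replicate 1. CHLH, a subunit of magnesium chelatase, had -0.3 ± 0.14 (0.352) and -0.14 without control replicate 1, and PORB -0.19 ± 0.14 (0.561) and -0.04 without control replicate 1, all with limma. The median of the list was -0.19. At their brightest probe sets the groups did not overlap for 2 of the 7 tested genes, PORA and CHLH (28.6%), against 25.2% of all tested genes.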

How the data were processed

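The deposited intensity is 1 linear value per probe set and array, which the authors made in GCOS 1.2 (per the submitters' processing notes). Which way probes were summarised and arrays scaled is not recorded in these sources. Each array was rescaled so that its 2%-trimmed mean became 500, and log2 was taken after adding 16. The 123 control and 64 reporter probe sets were left out, and the lower 50% by mean log2 signal, which left 28597. The RNAi and control arrays were fitted with limma 3.58.1 under R 4.3.3 (eBayes with a trend, two-sided). SAM was run with all 20 label permutations. The array run records gave only the hybridization time and the fluidics module. Deviations of same-numbered arrays from their group means correlated at -0.04519 to 0.008384, so the replicate numbers were not used as pairs. Names come from the platform annotation and a RefSeq table of the assembly ASM3414082v1, whose coordinates were not used. Members and lists were chosen with earlier results of these data known. Outside the members, genes called or with the up to 4 smallest adjusted p-values of a list were named. On simulated arrays of 28597 probe sets with 200 changed, limma found 29% of 2-fold and 69.8% of 4-fold changes. The changed probe sets were drawn from all tested ones, whose median within-group SD was 0.258 against 0.177 for the members. These shares are thus not those for the members, but a change as small as those seen here could be missed. With 3 arrays a group, precision is limited by that number.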

Additional observations from a re-analysis of the deposited data

How the results depend on the processing

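Under 17 alternatives, 183 values of the member probe sets were computed. None passed the threshold (lowest adjusted p 0.0762), 169 kept their direction and 14 changed it. Other signal filters, the replicate block, the fit without a trend, SAM and selections of probe sets leave each fold change as it was. Their values could not change direction, so the 169 are not all tests of direction. On the intensities as deposited the median of all probe sets was -0.52, and PRR1 (-0.49), PRR73 (-0.42, first probe set), PHYA (-0.28 and -0.31) and PHYC (-0.25) turned negative. Relative to that median they were 0.03, 0.11, 0.24, 0.21 and 0.27. With quantile normalization GI (0.06), PHYB (0.01) and PRR95 (0.02) turned positive. Leaving out 1 array at a time gave ranges of -0.11 to 0.04 for GI, -0.12 to 0.07 for PHYB and -0.2 to 0.06 for PRR95, which changed sign, and without a change of sign 0.06 to 0.21 for PRR1, 0.09 to 0.34 and -0.19 to -0.07 for PRR73, 0.2 to 0.47 and 0.23 to 0.4 for PHYA and 0.27 to 0.48 for PHYC. PRR37 was negative under every alternative, from -1.42 to -0.59 at the first and -1.17 to -0.29 at the second probe set. The lower ends are those on the deposited scale (-0.9 and -0.65 relative to its median). As the groups did not overlap at PRR37 and PHYC, leaving out 1 array could not change their sign. Fits without 1 array called 233 to 902 of all probe sets, 37 were called as deposited (64.9% higher, against 51.9%), 394 with no signal filter, 261 in the upper 25% (39.8% higher) and 303 without a trend (61.4% higher). In the light-harvesting list PORA was lost as deposited and without a trend (0 called), and 0 to 1 were called without 1 array. The medians by usual peak as deposited were -0.28 for dawn (0.35 after scaling), -0.96 for morning to midday, -0.71 for afternoon and -0.49 for evening, and without 1 array they ran from -0.23 to 0.66 for dawn, -0.46 to -0.18 for morning to midday, -0.2 to 0.06 for afternoon and -0.09 to 0.21 for evening. With the replicate number as a block 424 probe sets and 0 members were called. The share of higher calls was 63% with SAM, 61.7% without control replicate 1 and 70.8% without control replicate 2. The cause of these shifts was not tested.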

Other observations

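LHY was not alone in RNAi replicate 1. On that array 40 probe sets lay at least as far above the mean of the other RNAi arrays as LHY, 4 of them with a named gene, LHY (listed as CCA1) included. IMCEL2 had a signal of 2965 in RNAi replicate 1 against 519 and 662 in the other RNAi arrays, and 1667, 2085 and 1866 in the controls. The chitin receptor gene CEBIP had 7205 against 1807 and 1748, and 1411, 1140 and 962 in the controls. DREB1G, a gene of the DREB family of transcription factors, had 7157 against 1835 and 1752, and 4896, 2529 and 2083 in the controls. RNAi replicate 1 was above every control for all 3. These genes were picked for their values on 1 array, so the values are a description and carry no test.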
